A study of Mus musculus with 2 samples.

Results

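Tropomyosins, tropomodulins and leiomodins bind the actin thin filament of muscle, and 10 genes that encode them were described among the 55536 genes of the deposited tables. The genes were chosen by name, as the 4 tropomyosins Tpm1, Tpm2, Tpm3 and Tpm4, the 3 tropomodulins Tmod1, Tmod3 and Tmod4, and the 3 leiomodins Lmod1, Lmod2 and Lmod3. The tissue was gastrocnemius, the large calf muscle, from female mice of strain B6CASTF1/J, a first-generation cross of B6 and CAST parents, at 2 months of age and with no treatment named. Total RNA (300 ng per library, with ERCC spike-in RNAs) was sequenced from 2 biological replicates of 1 group, called animal 1 and animal 2 here. The labels number the mice separately but give both the same donor record, so whether the spread lies between mice or within a mouse cannot be told from them. With 1 group of 2 libraries no test was possible, and each difference compares these libraries without a replicate check.

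Tropomyosin is a coiled coil that lies end to end along the actin filament and, with troponin, sets when myosin can reach actin. Tropomodulin caps the slow-growing, pointed end of the filament in the middle of the sarcomere and binds tropomyosin there. Leiomodins are relatives of tropomodulin that start new filaments and let them grow at that end. Each tropomyosin gene makes several proteins through alternative promoters and exons: exon 1a or 1b at the start, exon 2a or 2b in long forms, exon 6a or 6b in the middle, and exon 9a, 9b, 9c or 9d at the end. The combination of exons 1a, 2b, 6b and 9a encodes the forms of striated muscle, and exon 1b starts short forms found in most cells.

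**Figure D1:**
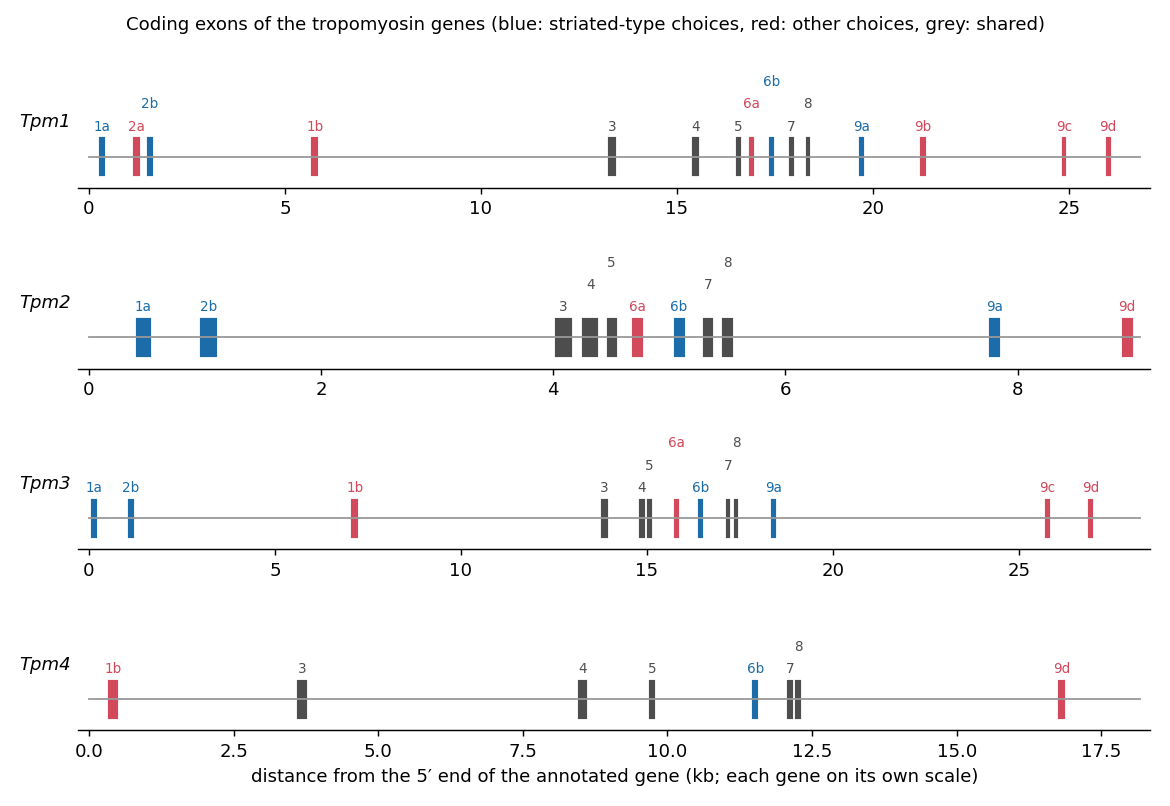
Coding exons of the 4 tropomyosin genes along the gene, in kb from the 5′ end and each gene on its own scale, with exons used by striated-type forms in blue, other choices in red and shared exons in grey. Tpm4 has only exon 1b as its start and no exon 6a, while Tpm1, Tpm2 and Tpm3 offer both versions of exon 6.

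Exon 6 is shown in sequence because the choice between 6a and 6b, 76 bases each, separates Tpm2-202 from Tpm2-203. These Tpm2 forms also differ in exon 9. The sequences were taken from GENCODE M21 transcripts, 5′ to 3′ on the coding strand, and capitals mark bases that differ from Tpm1 exon 6b at the same position.
Tpm1 exon 6b: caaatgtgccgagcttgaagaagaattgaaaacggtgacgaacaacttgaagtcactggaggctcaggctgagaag
Tpm2 exon 6b: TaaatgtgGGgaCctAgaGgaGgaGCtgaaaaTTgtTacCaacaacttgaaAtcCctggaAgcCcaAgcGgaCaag
Tpm3 exon 6b: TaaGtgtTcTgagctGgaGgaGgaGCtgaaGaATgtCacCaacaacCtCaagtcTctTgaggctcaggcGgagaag
Tpm4 exon 6b: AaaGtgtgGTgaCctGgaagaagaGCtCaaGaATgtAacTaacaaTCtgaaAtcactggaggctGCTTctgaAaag
Tpm1 exon 6a: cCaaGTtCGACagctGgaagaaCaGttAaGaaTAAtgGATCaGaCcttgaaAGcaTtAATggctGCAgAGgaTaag
Tpm2 exon 6a: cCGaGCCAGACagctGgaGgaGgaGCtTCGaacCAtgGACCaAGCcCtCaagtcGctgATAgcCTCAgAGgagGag
Tpm3 exon 6a: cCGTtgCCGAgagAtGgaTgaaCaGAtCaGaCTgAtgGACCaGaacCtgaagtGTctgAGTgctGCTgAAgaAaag
In mm10, the 6b exons lie at chr9:67031951-67032026 (minus strand), chr4:43518644-43518719 (minus), chr3:90089048-90089123 (plus) and chr8:72146452-72146527 (plus). The 6a exons lie at chr9:67032466-67032541 (minus), chr4:43519003-43519078 (minus) and chr3:90088401-90088476 (plus). All are coding exons. Tpm1 exon 6b was identical to exon 6b of Tpm2 at 73.7% of bases, to that of Tpm3 at 75.0% and to that of Tpm4 at 71.1%. Exon 6b was less like exon 6a of the same gene, at 56.6% in Tpm1, 53.9% in Tpm2 and 51.3% in Tpm3. Between genes, the 6a exons were identical at 61.8% to 65.8% of bases. A given version of exon 6 was thus closer to the same version in another gene than to its alternative in the same gene.

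The 10 genes lie on 6 chromosomes (mm10, GENCODE M21). Tpm1 is at chr9:67022590-67049406 (minus strand), Tpm2 at chr4:43514711-43523765 (minus), Tpm3 at chr3:90072649-90100902 (plus) and Tpm4 at chr8:72134975-72153142 (plus). Tmod1 is at chr4:46038935-46116032 (plus), Tmod3 at chr9:75497707-75559657 (minus) and Tmod4 at chr3:95124476-95129209 (plus). Lmod1 is at chr1:135324807-135368065 (plus), Lmod2 at chr6:24597762-24605414 (plus) and Lmod3 at chr6:97238534-97252759 (minus).

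Levels below are from the deposited gene tables, and transcripts from 2 deposited transcript tables, called first and second, which estimate the same libraries in different ways. The libraries held 45014831 and 47771308 expected counts on genes, with 11889 and 11425 genes at 1 TPM (transcript count per length, scaled to a fixed sum) or more. TPM are on unlike scales in the first and second transcript tables. Nuclear protein-coding genes held 38.4% and 37.5% of gene TPM in the gene tables, whose scale is that of the first transcript table. In the second table they held 62.6% and 60.3%. A higher TPM in the second table is thus not by itself a higher level. All 6 skeletal fibre markers were present, with a summed level of 30420 and 30021 TPM in animals 1 and 2, and none of them or of the 10 fast fibre markers was 2-fold apart. Markers of other cells differed between the libraries: all 5 adipocyte markers (729 against 96.7 TPM summed) and the 4 Schwann cell markers with a mean count of at least 100 (234 against 32.1 TPM for all 5) were 2-fold or more higher in animal 1. So were 1 of 4 endothelial markers, Vwf (22.3 against 5.48 TPM, with 69.9 against 44.1 TPM summed over the list), and 1 of 5 fibroblast markers, Col3a1 (126 against 58.5 TPM, with 494 against 428 TPM summed). Of 4 tenocyte markers, all higher in animal 2 (112 against 202 TPM summed, median log2 ratio 0.71), Fmod was 2-fold or more higher (51.2 against 115 TPM). Over the 10872 genes with a mean count of at least 100, 2.24% were 2-fold or more higher in animal 1 and 0.782% in animal 2. The part of these cell types in the differences of Tpm3 and Lmod1 was not tested. In bulk tissue, fewer cells of a type and less RNA per cell cannot be told apart.

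All 10 genes stood at 1 TPM or more in both animals, as did 20.1% of all genes and 46.5% of nuclear protein-coding genes. Their levels ran over more than 3 orders of magnitude, from Tpm1 at rank 7 to Lmod1 at rank 7902 among 22015 nuclear protein-coding genes. The 4 tropomyosins together held 10615 and 10854 TPM in animals 1 and 2, which was 1.07% and 1.09% of the TPM of all genes. The tropomodulins summed to 268 and 285 TPM and the leiomodins to 157 and 171 TPM. The family totals differed less between the animals than Tpm3 and Lmod1 did within them.

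**Figure D2:**
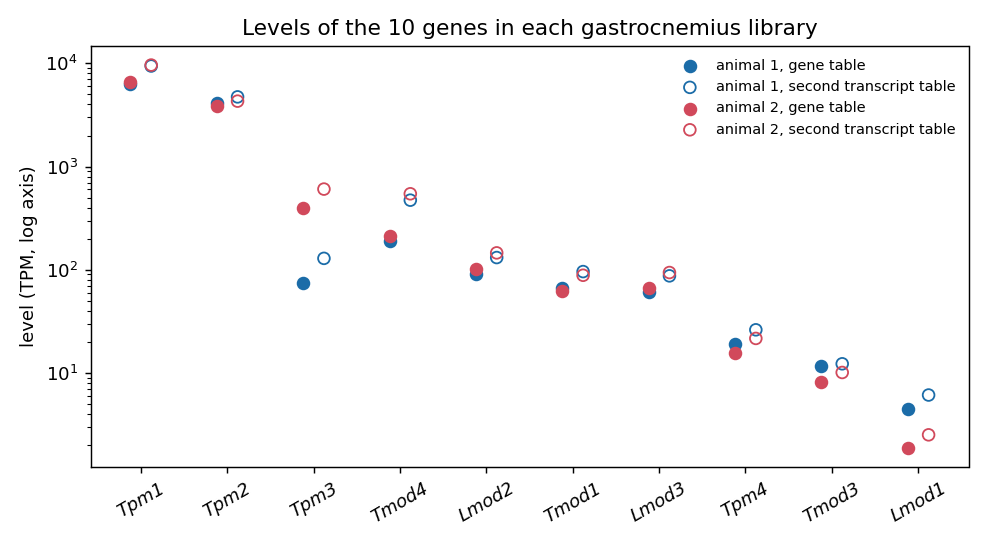
Level of each gene in TPM on a log axis, as points for animal 1 (blue) and animal 2 (red), from the gene table (filled) and summed from the second transcript table (open). The pairs of points lie close together for 8 genes, and stand apart for Tpm3, higher in animal 2, and Lmod1, higher in animal 1. Filled and open points are on unlike TPM scales.

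Tpm1, the alpha tropomyosin of fast fibres and heart, was the most abundant of the 10, at 6352 and 6588 TPM in animals 1 and 2 (mean 6470 ± 167, SD, n = 2). Tpm2, the beta tropomyosin shared by fast and slow fibres, followed at 4169 and 3856 TPM (4013 ± 221). The animals were close for both genes, and Tpm1 exceeded Tpm2 by 1.52-fold in animal 1 and 1.71-fold in animal 2. Tpm3, whose striated form is the tropomyosin of slow fibres, stood at 74.4 and 394 TPM in animals 1 and 2 (234 ± 226), so that its mean describes neither library. Tpm4, which makes a short form of the cytoskeleton, stood at 18.9 and 15.8 TPM (17.3 ± 2.20). Of the tropomyosin TPM, Tpm1 held 60.3 ± 0.601%, Tpm2 37.4 ± 2.65%, Tpm3 0.701% in animal 1 and 3.63% in animal 2, and Tpm4 0.161 ± 0.0230%.

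Among the tropomodulins, Tmod4, the isoform of skeletal muscle, was the highest at 190 and 215 TPM (202 ± 17.6). Tmod1, which caps filaments in striated muscle and in the membrane skeleton of red blood cells, stood at 66.9 and 62.0 TPM (64.5 ± 3.41). Tmod3, the isoform of most other cells, stood at 11.7 and 8.26 TPM (9.96 ± 2.40). Tmod4 thus held 73.0 ± 3.25% of the tropomodulin TPM, Tmod1 23.4 ± 2.23% and Tmod3 3.62 ± 1.02%. The haemoglobin gene Hba-a1 was at 84.8 and 111 TPM in the same libraries, and of the red cell membrane markers Slc4a1 was at 0.01 and 0.02 TPM and Epb42 at 0 in both. The erythroid list summed to 237 and 305 TPM, with a median log2 ratio of 0.42 (animal 2 over animal 1) over the 4 of its 8 members with a mean count of at least 100, none of them 2-fold apart, and its part in the level of Tmod1 was not tested.

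Among the leiomodins, Lmod2, known from heart and skeletal muscle, was at 91.5 and 103 TPM (97.0 ± 7.81). Lmod3, the leiomodin of skeletal muscle whose loss causes nemaline myopathy, was at 61.2 and 66.6 TPM (63.9 ± 3.80). Lmod1, the leiomodin of smooth muscle, was at 4.48 and 1.89 TPM in animals 1 and 2 (3.19 ± 1.83). Lmod2 held 59.1 ± 1.24% of the leiomodin TPM and Lmod3 38.9 ± 0.00469%, the share with the smallest SD of the 10. Lmod1 held 2.85% in animal 1 and 1.11% in animal 2. Of markers known from heart, Myl7 was at 0 in both libraries and Nppa was at 0 and 0.03 TPM, while Myh6 was at 18.0 and 125 TPM.

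Ordered by mean TPM, the genes ran Tpm1, Tpm2, Tpm3, Tmod4, Lmod2, Tmod1, Lmod3, Tpm4, Tmod3 and Lmod1. Neighbours were called apart where the same gene was higher in both animals and the mean log2 ratio exceeded 2 SD. Tpm3 and Tmod4 were not apart, since Tmod4 was higher in animal 1 and Tpm3 in animal 2, and Tmod1 and Lmod3 were not, with ratios of 1.09 and 0.932. The other 7 neighbouring pairs were apart, the narrowest being Lmod2 over Tmod1 at 1.37-fold and 1.65-fold. In the second transcript table the mean of Tmod4 lay above that of Tpm3, and the rest of the order was unchanged.

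The striated-type combination of exons 1a, 2b, 6b and 9a accounted for most tropomyosin RNA. In the first transcript table the 4 transcripts with it held 77.1% of tropomyosin TPM in animal 1 and 78.9% in animal 2 (78.0 ± 1.23%). The second table, a separate estimate from the same libraries, gave 69.0% and 70.4% (69.7 ± 0.959%). Transcripts that start with exon 1b held 0.283% and 0.222% in the first table and 0.275% and 0.237% in the second. Long forms starting in exon 1a, with 284 codons in the leading transcripts, were therefore nearly all of the tropomyosin RNA with an assigned first exon in both estimates, and the short forms, of 248 codons in Tpm4-201, a trace.

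In Tpm1 the striated-type form led by a wide margin in both tables. Tpm1-205, with exons 1a, 2b, 6b and 9a, held 97.7% and 97.4% of the gene's TPM in the first table and 76.3% and 76.5% in the second. Among transcripts with either version, exon 6b had 99.6% and 99.5% of TPM in the first table and 93.6% and 93.9% in the second. Exon 9a had 99.4% and 99.6% in the first table but 82.9% and 83.0% in the second, where Tpm1-216, the same form with exon 9d, stood at 1448 and 1524 TPM against 18.9 and 15.7 TPM in the first. Tpm1-203, with exon 6a and exon 9a, stood at 601 and 583 TPM in the second table against 21.9 and 31.3 TPM in the first. The animals agreed within each table, and the tables differed from each other by far more than the animals did. Tpm1-205 has no 31-base word absent from other Tpm1 transcripts (0 of 1178), and Tpm1-216 has 131 of 1868. The gene's total count hardly depended on the table, at 1.09 and 1.08 times the first in the second.

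Tpm2 was divided between a skeletal form and a form described in smooth muscle and non-muscle cells. Tpm2-202, with exons 6b and 9a, stood at 1912 and 1761 TPM in animals 1 and 2 in the first table, and Tpm2-203, with exons 6a and 9d, at 727 and 673 TPM. The second table gave 2604 and 2368 TPM for Tpm2-202 and 2128 and 1905 TPM for Tpm2-203. These TPM are on another scale than those of the first table, so the levels are compared only within a table. Tpm2-202 was the higher in both animals and both tables. Among transcripts with either version, the share of exon 6a moved from 27.6 ± 0.0631% in the first table to 44.8 ± 0.280% in the second. These shares have unlike bases. Transcripts with no assigned exon 6, left out of them, held 36.7% and 36.9% of Tpm2 TPM in the first table and 0.0881% and 0.774% in the second. Tpm2-201, which pairs exon 6a with exon 9a, was at 0 TPM throughout, but 0 of its 2145 31-base words are its own. Its level of 0 therefore does not show that this pairing is absent. Exons 6b and 9a, and exons 6a and 9d, went together in every Tpm2 transcript with reads that covers both choices. No annotated Tpm2 transcript pairs exon 6b with exon 9d, so this pairing follows largely from the annotation. Of 31-base words, 55 of 2068 in Tpm2-202 and 131 of 1134 in Tpm2-203 occur in no other Tpm2 transcript.

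Short, incomplete Tpm2 transcripts carried much of the gene's TPM in the first table only. Tpm2-206, of 401 nt, stood at 1001 and 916 TPM and Tpm2-204, of 337 nt and without a coding sequence, at 521 and 497 TPM. In the second table Tpm2-204 was at 0 and Tpm2-206 at 0 and 27.7 TPM. The counts behind them were 11374 and 11073 for Tpm2-206 and 4665 and 4735 for Tpm2-204, of 189490 and 186014 for the whole gene. Without transcripts under 500 nt, Tpm2 held 27.5% of tropomyosin TPM and Tpm1 69.8%.

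Among Tpm3 transcripts with an assigned start, most TPM came from exon 1a in both libraries, and a larger share in animal 2. Tpm3-205, with exons 1a, 2b, 6b and 9a, stood at 63.2 and 377 TPM in animals 1 and 2 in the first table, and at 85.1 and 505 TPM in the second. The exon 1a share of transcripts with either start was 89.6% and 98.8% in the first table and 87.7% and 97.8% in the second. Transcripts with no assigned start, left out of these shares, held 4.21% and 2.47% of Tpm3 TPM in the first table and 24.8% and 14.6% in the second. Tpm3-201, the short form with exons 1b, 6a and 9d, stood at 5.65 and 1.33 TPM in the first table and 9.65 and 8.65 TPM in the second. Tpm3-214, an incomplete transcript of 459 nt, was at 0 in the first table and at 29.9 and 83.7 TPM in the second. Tpm4-201, of 248 codons with exons 1b, 6b and 9d, held 98.9 ± 1.5% of Tpm4 TPM in the first table and all of it in the second.

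**Figure D3:**
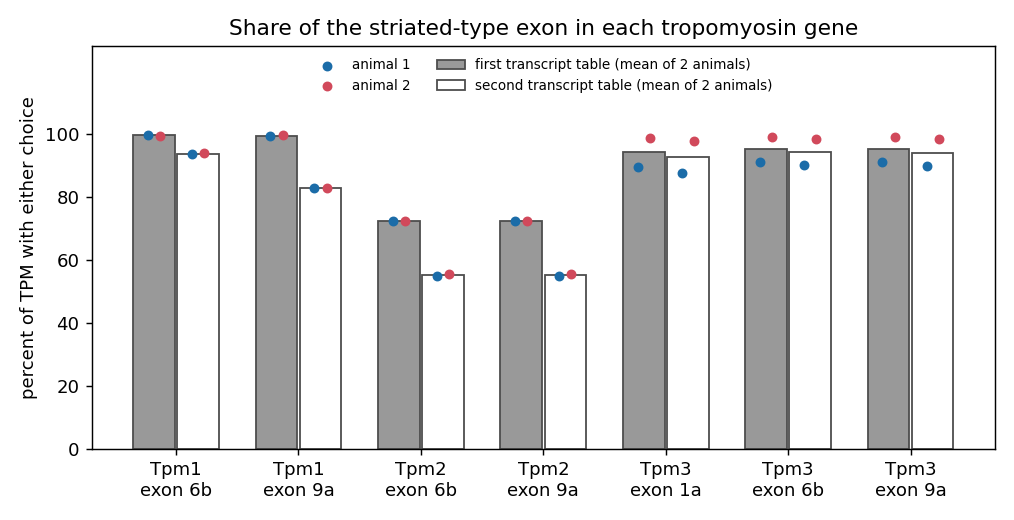
Percent of a gene's TPM with the striated-type exon, among transcripts with either version of that exon, as bars for the mean of 2 animals in the first (grey) and second (white) transcript table and points for each animal, with the axis from 0. Tpm1 and Tpm3 lie above 80% in each case, and Tpm2 lies at 72.4% in the first table and 55.2% in the second for both exons.

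The tropomodulins differed in how far their transcripts could be told apart. Tmod1-201, of 359 codons, held 96.8 ± 0.0590% of Tmod1 TPM in the first table and 97.7% in the second. Tmod3-201, of 352 codons, held 54.1 ± 1.68% and 66.6%, with Tmod3-202, of 444 nt, at 34.7% and 22.3% and Tmod3-205 at 5.25% and 5.09%. Tmod4-201, of 345 codons, held 89.9 ± 2.65% in the first table and 21.1% in the second, where Tmod4-204, a coding transcript of 765 nt, led with 36.4%. The retained-intron transcripts Tmod4-206 and Tmod4-203 held 25.1% and 11.4% in the second table against 5.13% and 2.02% in the first. Tmod4-202, also of 345 codons, held 2.49% in the first table and 5.99% in the second. Only 29 of the 1212 31-base words of Tmod4-201 occur in no other Tmod4 transcript. Among the tropomyosin and tropomodulin genes, each with several transcripts, Tmod4 was the only one whose leading transcript differed between the tables. The leading transcript differed for 23.4% of 9443 nuclear protein-coding genes with several transcripts. The Lmod1, Lmod2 and Lmod3 genes have 1 annotated transcript each, of 595, 550 and 571 codons.

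Gene levels were compared between the tables after rescaling both to nuclear protein-coding genes. Tmod4 was 1.56 times higher in the second table, past the 1.5-fold limit that 5.97% of 10227 genes passed in either direction. Tpm2 was at 0.697 and Tmod3 at 0.695 of the first table's level, just short of that limit, and the other 7 lay between 0.836 and 0.974. The counts behind Tmod4 differed by only 1.04 and 1.05 times, and TPM also divides by the length of the transcripts to which the reads are assigned.

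Some reads of these genes are shared with other genes. Of the 1109 31-base words of Tpm3-205, 400 (36.1%) also occur in Tpm3-rs7, a copy on chromosome 14 at 2.76 and 3.69 TPM. The authors' posterior SD of the Tpm3 count was 16.2 and 15.9 reads, against counts of 3209 and 16564. Of the 2098 words of Tpm4-201, 347 (16.5%) occur in the pseudogene Gm7809, at 0.37 and 0.46 TPM. Tmod1-201 overlaps Tstd2 on the opposite strand over 1257 of its words, Tstd2 stood at 4.42 and 3.99 TPM, and reads of the overlap cannot be told apart unless the counting used strand. Tpm1-205 and Tpm2-202 share 9 words, and Tmod4-201 and the 3 leiomodin transcripts share none with another gene.

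Between the animals, 2 of the 10 genes differed by 2-fold or more. All 10 had a mean count of at least 100, from 470 for Lmod1 to 277872 for Tpm1. Tpm3 was 5.21-fold higher in animal 2 (log2 2.38, 95% counting interval 2.33 to 2.44), and 0.782% of 10872 genes with a mean count of at least 100 were 2-fold or more higher in animal 2. Lmod1 was 2.21-fold higher in animal 1 (log2 -1.14, interval -1.35 to -0.94), and 2.24% of genes were 2-fold or more higher in that library. In either direction the share was 3.03%. Ratios were taken of expected counts scaled with TMM factors (trimmed mean of M values, which centres most genes near no change), and the intervals are exact binomial and cover counting error only. Scaled to the spike-ins the median of all genes moved to 0.22, and Lmod1, at -0.93, was no longer 2-fold apart.

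The other 8 genes differed by 1.24-fold or less between the animals. Tmod4 (log2 0.28), Lmod2 (0.27), Lmod3 (0.23) and Tpm1 (0.15) were slightly higher in animal 2, and under every scaling tried, while Tmod3 (-0.31) was slightly higher in animal 1 under every scaling. Tpm2 (-0.01), Tmod1 (-0.00) and Tpm4 (-0.13) were lower in animal 2 with TMM factors but higher, at 0.20, 0.21 and 0.08, when scaled to the spike-ins. The 3763 genes with mean counts from 1000 to 10000 had a median of 0.06, with 10% below -0.18 and 10% above 0.27. Tmod4 and Lmod2 lay just above the upper of these bounds, and Tmod1, Lmod3 and Tpm4 between the bounds. The 349 genes with larger counts had a median of 0.11 and ran from -0.10 to 0.35 between the same percentiles, with Tpm1 and Tpm2 both inside.

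**Figure D4:**
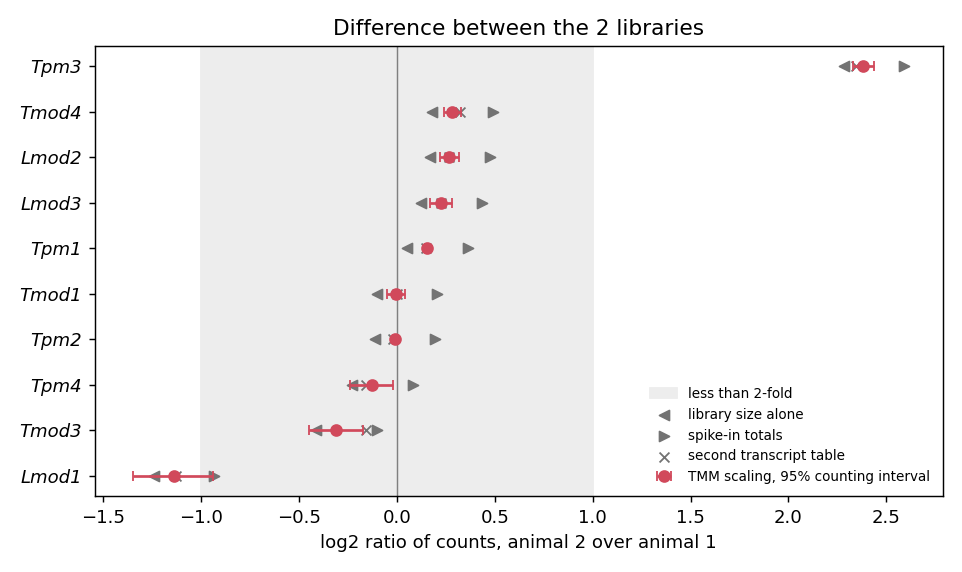
Log2 ratio of counts, animal 2 over animal 1, for each gene with TMM factors and its 95% counting interval (red). Ratios of counts are also shown with library size alone (left triangles) and spike-in totals (right triangles). Crosses show the second transcript table, as ratios of TPM centred on their median. The region of less than 2-fold is shaded. Tpm3 at 2.38 lies outside the shading under all scalings and Lmod1 at -1.14 under all but the spike-ins.

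Among Tpm3 transcripts with an assigned start, the higher level in animal 2 lay in those with exon 1a. Tpm3-214, which has no assigned start, was also higher in animal 2 in the second table, at 29.9 and 83.7 TPM. Transcripts with exon 1a stood at 63.8 and 380 TPM in animals 1 and 2 in the first table and at 85.1 and 505 TPM in the second, 5.95-fold and 5.94-fold higher in animal 2. Transcripts with exon 1b stood at 7.41 and 4.59 TPM in the first table and at 11.9 and 11.5 TPM in the second. On scaled counts of the first table, the log2 ratio was 2.67 for exon 1a (interval 2.61 to 2.73) and -0.60 for exon 1b (-0.78 to -0.41). These intervals leave out the error of assigning reads to transcripts, which is large for exon 1b. Tpm3-201 had 453 and 114 counts, with posterior SD of 60.5 and 76.7 reads. Tpm3-202, also with exon 1b, went the other way, at 138 and 273 counts with SD of 35.3 and 49.8 reads. The animals were thus far apart for the upstream start, while for the internal start animal 2 was lower in the first table and close to animal 1 in the second.

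The upstream Tpm3 start and the internal start lie about 7 kb apart, and the 250 bases before each are shown because the starts differed in this way. The sequences are from RefSeq, GRCm38.p6, plus strand, at chr3:90072401-90072650 for the start of exon 1a and chr3:90079271-90079520 for that of exon 1b, and capitals mark the matches to the motifs searched.
Tpm3 upstream promoter: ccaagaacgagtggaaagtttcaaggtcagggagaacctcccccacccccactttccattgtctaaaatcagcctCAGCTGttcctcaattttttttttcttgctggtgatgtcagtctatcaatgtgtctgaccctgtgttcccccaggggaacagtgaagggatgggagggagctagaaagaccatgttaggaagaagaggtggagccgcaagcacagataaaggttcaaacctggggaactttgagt
Tpm3 internal promoter: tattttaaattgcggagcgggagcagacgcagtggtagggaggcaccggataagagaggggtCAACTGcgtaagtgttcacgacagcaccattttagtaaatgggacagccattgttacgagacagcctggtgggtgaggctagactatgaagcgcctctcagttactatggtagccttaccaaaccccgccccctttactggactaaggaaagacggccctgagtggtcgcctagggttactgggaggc
Each window of 300 bases, from 250 before to 50 after the start, was searched on both strands for the E box (CANNTG), the MCAT motif (CATTCC), the CArG box and the MEF2 box. Each Tpm3 promoter held 1 E box, 175 bases before the upstream start and 188 before the internal start, and none of the other motifs. E boxes occur in 72.3% of 32851 RefSeq promoters of this length, MCAT in 14.7%, the MEF2 box in 3.19% and the CArG box in 1.63%. Promoter sequence was matched for 8 of the 10 genes, not for Tmod3 or Lmod3. MCAT was found in Tpm1, 56 bases before the start, in Lmod1, 130 before, and in Tmod1, 163 before, and no match overlapped another.

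The slow fibre markers moved with Tpm3. All 8 of them were 2-fold or more higher in animal 2, as were 0.782% of the 10872 genes with a mean count of at least 100. Their median log2 ratio was 2.49 and their summed level 873 and 3624 TPM in animals 1 and 2. Myh7, the slow myosin heavy chain, stood at 92.6 and 596 TPM (log2 2.75), and Myl2, a slow light chain, at 370 and 920 TPM (1.42). Myl3, another light chain, stood at 131 and 642 TPM (2.39), the calcium pump Atp2a2 at 67.3 and 345 TPM (2.44) and the calcium buffer Casq2 at 18.9 and 38.2 TPM (1.03). The 10 fast fibre markers summed to 54489 and 51437 TPM, with a median of -0.01. The part of the slow fibre genes in the Tpm3 difference was not tested.

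Lmod1 was not the only smooth muscle transcript that was higher in animal 1. Of the 8 smooth muscle and pericyte markers, 7 had a mean count of at least 100 and 4 of these were 2-fold or more higher in animal 1. The share over all genes with that count was 2.24%. The 7 had a median log2 ratio of -1.13, and all 8 a summed level of 253 and 156 TPM. Smooth muscle actin, Acta2, stood at 58.0 and 22.1 TPM (log2 -1.27), Tagln, an actin-binding protein, at 53.1 and 13.8 TPM (-1.84), the smooth muscle myosin Myh11 at 16.9 and 7.19 TPM (-1.13) and the calponin Cnn1 at 6.84 and 1.27 TPM (-2.45). Rgs5, at 68.5 and 63.7 TPM, and Smtn, at 40.4 and 42.8 TPM, had the highest means of the list and were close in the animals. None of the 8 was at 0, and Actg2 was the lowest, at 3.31 and 0.17 TPM. Their part in the Lmod1 difference was not tested.

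Tpm1 transcripts with exon 2a in place of exon 2b, as in the smooth muscle form of the protein, were also lower in animal 2. They stood at 9.72 and 3.14 TPM in animals 1 and 2 in the first table, from 608 and 208 counts (log2 -1.53, interval -1.77 to -1.30). The second table gave 3.58 and 2.11 TPM. All of this was Tpm1-215, with exons 1a, 2a, 6b and 9d, which holds no 31-base word of its own among Tpm1 transcripts, and whose count had a posterior SD of 45.7 and 27.2 reads. Exon 2a made up 0.155% and 0.0485% of Tpm1 TPM with either second exon, so this difference is not visible in the gene's total.

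**Figure D5:**
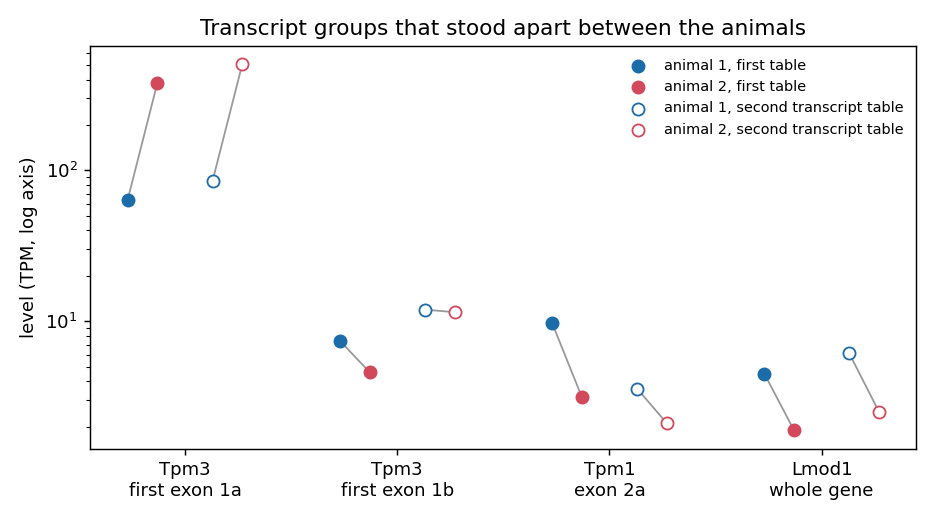
Level in TPM on a log axis of Tpm3 transcripts with exon 1a or 1b, Tpm1 transcripts with exon 2a in place of 2b and the Lmod1 gene. Lines join animal 1 (blue) to animal 2 (red) in the first (filled) and second (open) table. Tpm3 exon 1a lies higher in animal 2 in both tables, and Tpm1 exon 2a and Lmod1 lie higher in animal 1 in both.

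Among other thin filament genes the abundant members were level between the animals, and 4 less abundant members were 2-fold or more higher in animal 2. Over all genes with a mean count of at least 100, the share higher in animal 2 was 0.782%. Of actins and filament rulers, Acta1, the skeletal actin, was at 16629 and 16341 TPM, Neb, the giant nebulin that spans the thin filament, at 1966 and 1993 TPM, and Nrap at 335 and 328 TPM. Their log2 ratios were 0.08, 0.08 and 0.06. Cardiac actin, Actc1, was at 9.71 and 51.4 TPM (2.51) and was the only one of the 4 members with a mean count of at least 100 that was 2-fold apart. Of the 6 troponins with that count, the fast Tnnt3, Tnni2 and Tnnc2 lay at 0.13, 0.11 and 0.19, and 3 were 2-fold or more higher in animal 2. These were the slow troponin T Tnnt1, at 83.7 and 442 TPM (2.54), Tnnc1, at 72.8 and 425 TPM (2.65), and Tnni1, at 36.6 and 216 TPM (2.67). The list median of 1.36 fell in the gap between the groups and describes no single troponin.

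Of the 18 genes of filament ends and turnover, which include partners of tropomodulin and leiomodin at the filament, 0 were 2-fold apart, against 3.03% of all genes tested, a share at which few or none of 18 would be called. They had a median log2 ratio of 0.00, from -0.84 to 0.50, beside 0.01 for all 10872 genes. Gsn, the filament-severing gelsolin, was at 492 and 279 TPM, the muscle cofilin Cfl2 at 183 and 193 TPM, and Capzb, which caps the opposite, barbed end, at 157 and 159 TPM. Of the 6 genes linked with LMOD3 through nemaline myopathy, 0 were 2-fold apart, which with so few genes is near the same share of all genes, and the median was 0.09. Klhl41 was at 245 and 234 TPM, and Klhl40, whose protein stabilises nebulin and leiomodin 3, at 43.4 and 42.9 TPM. Of 7 regulators, 6 had a mean count of at least 100, 0 of these were 2-fold apart, again near that share, and the median was 0.17. Mef2c was at 174 and 178 TPM, Mef2d at 59.2 and 61.9 TPM and Mef2a at 31.9 and 33.4 TPM. Srf, the serum response factor that binds CArG boxes, was at 29.7 and 29.5 TPM. Myocd, its coactivator in smooth muscle, was at 0.64 and 0.25 TPM from 98 and 32 counts, below the count minimum.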

How the data were processed

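Gene tables and a first transcript table were deposited with expected counts and TPM in the layout RSEM writes, each with a posterior SD of the count and credibility bounds, and the transcript version adds a percent of gene TPM, per the file headers. Another transcript table, called the second, was deposited with estimated counts and TPM in kallisto's layout, per the file headers. The submitters' processing notes and deposited file lists name mm10 (GRCm38) and GENCODE M21. Neither tool versions nor a strand setting is given in the sources used here. Reads from a cross with CAST were counted on a B6 genome, and any loss of CAST alleles was not analysed here.

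All 55536 gene identifiers matched GENCODE M21. The 26249 rows with no gene name held 4 and 5 reads (8.84e-06% and 1.04e-05% of counts) and were left out of library sizes with the 96 spike-in rows. TMM factors (edgeR 4.0.16, R 4.3.3) were computed on expected counts rounded to whole numbers, using genes with a mean count of at least 10. Log2 ratios used a prior count of 0.5, and exact binomial intervals are at 95%. A gene was called at 2-fold or more with a mean count of at least 100. Ratios of levels between genes used TPM without a pseudocount. For the second table, ratios between animals used TPM with a pseudocount of 0.1. They were centred on their own median over genes with a mean of 1 TPM or more in that table. Exon labels were assigned by position to GENCODE coding exons. Other work used scipy 1.17.1, pandas 2.3.3, numpy 2.4.6 and matplotlib 3.10.9 under Python 3.11.15. The ratio procedure was tested on simulated counts. At 45231388 and 47956841 counts per library in all, precision is limited by the number of libraries and, for genes with few counts, by counting error. The labels name no batch.

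The genes and lists were chosen with earlier results of these data known. The rule named all 10 genes, each transcript with 5% or more of its gene's TPM in either table, the 3 highest members of each thin filament list and each member 2-fold apart. Of the marker lists and of members below the count minimum, genes were named after their values were seen, as were Tpm1-215, Tpm2-201, Tpm3-201, Srf, Klhl40 and the genes that share sequence with the 10. Alternatives were DESeq2 1.42.0 size factors, library size, spike-in totals, other prior counts and filters, shares of counts, coding transcripts only, the second table and each library left out.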

Additional observations from a re-analysis of the deposited data

How the results depend on the processing

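In the second transcript table the family shares were 65.99% for Tpm1, 31.3% for Tpm2, 15.1% for Tmod1, 1.84% for Tmod3, 83.0% for Tmod4 and 38.8% for Lmod3. The leading transcript's share there was 76.4% for Tpm1, 54.98% for Tpm2, 74.7% for Tpm3, 97.7% for Tmod1, 66.6% for Tmod3 and 21.1% for Tmod4, and the striated-type share of tropomyosin was 69.7%. As shares of expected counts, which are not divided by length, the family shares were 58.2% for Tpm1, 0.283% for Tpm4, 43.9% for Tmod1, 5.07% for Tmod3, 51.0% for Tmod4, 3.77% for Lmod1, 55.2% for Lmod2 and 41.0% for Lmod3. By counts the leading transcripts held 97.9% for Tpm1, 75.8% for Tpm2, 99.4% for Tmod1, 86.5% for Tmod3 and 92.9% for Tmod4. Among coding transcripts only they held 98.97% for Tpm1, 52.6% for Tpm2, 100% for Tmod1, 57.6% for Tmod3 and 96.8% for Tmod4. Leaving out transcripts under 500 nt, an alternative chosen after seeing the data, gave 69.8% for Tpm1, 27.5% for Tpm2, 0.185% for Tpm4 and 2.38% for Tmod3. The order of mean shares within each family held under all of these settings. Each library alone gives the values printed for that animal, and with a library left out the level moved by over 1.5 times for Tpm3 and Lmod1 and for no other of the 10 genes.

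With spike-in totals, 0 of the 10 genes were 2-fold higher in animal 1. List medians with library size alone were -0.019 (thin filament and ruler), 1.26 (troponins), -0.10 (filament ends), -0.014 (nemaline partners) and 0.069 (regulators), and with spike-in totals 0.29, 1.57, 0.21, 0.30 and 0.38. Without a filter on counts the thin filament median was 0.084 and the troponin median 0.31, since lowly counted members enter, and DESeq2 factors gave 1.36 for the troponins. Of 50 log2 ratios of the 10 genes under alternatives, 32 moved by less than their counting interval and 18 by more. No paired analysis was possible because there is 1 group of 2 libraries. The second table and the gene table estimate the same reads, so their difference is no measure of biological spread.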
